A study of Homo sapiens with 10 samples.

Results

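The sirtuin family of human cells comprises 7 genes, SIRT1 to SIRT7, and each was found by its symbol among the 28380 genes of the count table. All 7 had reads, and 6 of them passed the filter on low counts and were tested with 13378 genes in all. SIRT4 did not pass the filter and is given as counts. The cells were RPE-1, a human retinal pigment epithelial line immortalized with telomerase. They received either sulforaphane (SFN, an isothiocyanate from cruciferous vegetables) at 25 µM or its solvent DMSO for 4 h, with 5 replicate libraries in each group and no other difference in genotype or treatment. The study asked whether SFN brings about transcript changes like those of nutrient deprivation, and the sirtuins bear on that question as enzymes that use NAD+. Its discussion also took SIRT1 from another report's list of starvation genes, and found no statistically significant change of SIRT1 with SFN.

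Sirtuins remove acetyl and longer acyl groups from lysines and consume NAD+ in each cycle, so their activity follows the NAD+ supply of the cell. SIRT1, SIRT6 and SIRT7 act mainly in the nucleus, SIRT2 mainly in the cytosol, and SIRT3, SIRT4 and SIRT5 in the mitochondria. SIRT1 is known for deacetylating p53, the FOXO factors and PGC-1α during fasting, and much of sirtuin control is exerted on the protein and on NAD+ rather than on the transcript. The libraries measured transcripts only.

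The promoters of the 3 sirtuin genes on which the results turn (SIRT1, SIRT2 and SIRT6) are shown here. RefSeq promoter windows (GRCh38.p14, 250 bases before to 50 after a transcript start) were matched for 6 of the 7 genes, with 9 windows in all, and SIRT7 had no entry. Each window was searched on both strands for 7 short motifs: the E-box CACGTG, the cyclic AMP element TGACGTCA, the antioxidant response element core TGACNNNGC, the amino acid response element core TGATGNAA, a heat shock element unit GAANNTTC, the ETS core CCGGAAG and the GC box GGGCGG. Of 35116 human promoter windows of the same length, 7.26% held the E-box, 1.85% the cyclic AMP element, 13.3% the antioxidant response element core, 3.62% the amino acid response element core, 6.77% the heat shock unit, 10.3% the ETS core and 45% the GC box. Capitals mark the 2 E-boxes of SIRT1 (chr10:67884406-67884705, plus strand), 123 and 44 bases before the start, and the antioxidant response element core of SIRT6 (chr19:4182514-4182813, minus strand), which lies 127 bases before the start and matches on the opposite strand. The SIRT2 window (chr19:38899569-38899868, minus strand) held none of the 7 motifs.
SIRT1: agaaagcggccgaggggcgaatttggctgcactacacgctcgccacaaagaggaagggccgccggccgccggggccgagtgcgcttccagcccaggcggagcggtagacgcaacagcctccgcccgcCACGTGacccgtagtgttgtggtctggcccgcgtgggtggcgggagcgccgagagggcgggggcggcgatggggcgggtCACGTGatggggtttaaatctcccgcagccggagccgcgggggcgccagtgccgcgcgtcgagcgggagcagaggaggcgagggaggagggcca
SIRT2: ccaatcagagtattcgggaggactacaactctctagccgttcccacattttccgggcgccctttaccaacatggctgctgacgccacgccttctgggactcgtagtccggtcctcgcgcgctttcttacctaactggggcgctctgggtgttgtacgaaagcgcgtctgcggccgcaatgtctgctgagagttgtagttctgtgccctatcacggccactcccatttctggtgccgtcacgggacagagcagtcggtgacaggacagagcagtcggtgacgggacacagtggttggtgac
SIRT6: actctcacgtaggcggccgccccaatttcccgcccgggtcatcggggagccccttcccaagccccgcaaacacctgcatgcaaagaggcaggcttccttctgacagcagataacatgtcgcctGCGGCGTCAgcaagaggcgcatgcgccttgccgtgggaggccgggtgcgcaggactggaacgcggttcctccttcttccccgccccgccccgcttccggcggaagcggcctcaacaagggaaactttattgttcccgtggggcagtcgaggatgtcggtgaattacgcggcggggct
The SIRT1 window also held 4 GC boxes, none of them overlapping an E-box. The SIRT6 window held 4 GC boxes and 1 ETS core, 35 bases before the start, and 2 of its GC boxes share a base. The second SIRT6 window (chr19:4182257-4182556) held 1 GC box and no other motif of the 7. Among the mitochondrial genes, a SIRT4 window (chr12:120291939-120292238) upstream of the gene start at 120302316 held the cyclic AMP element and the heat shock unit. The SIRT4 window at that gene start (chr12:120302071-120302370) held none of the 7 motifs. The SIRT3 window held an ETS core. These matches describe letters in the windows and no binding was measured.

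Total counts per library ranged from 15689294 to 20666692 (median 16699666) in DMSO and from 12375860 to 17308706 (median 14408929) in SFN. DMSO replicate 1 stood apart from the other DMSO libraries, with a mean Spearman correlation across genes of 0.935 against 0.979 to 0.982 for the others, so results are also given without it. Of the simple epithelial markers, KRT8, KRT18, EZR and TJP1 were abundant and EPCAM was near 0, and EZR fell by 0.31 on the log2 scale (edgeR, adjusted p = 0.0378). Of 11 retinal pigment epithelium markers with a row, 5 passed the filter, while the defining visual cycle genes RPE65 and RLBP1 were at or near 0, and the summed level of the list was 63.6 to 105 CPM in DMSO and 56.6 to 137 CPM in SFN. MITF and OTX2 of that list fell, by 1.12 and 0.64 on the log2 scale (edgeR, adjusted p = 5.27e-05 and 0.00288). The summed level of 5 markers of blood, endothelial and neural cells did not exceed 1.25 CPM in any library. Whether any of these differences had a part in the sirtuin results was not tested.

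Levels are in CPM (the usual counts-per-library scale, taken on TMM-adjusted library sizes). The libraries capture the 3′ end of transcripts, so CPM does not grow with transcript length as it does in full-length libraries, and the order of the genes is given in CPM with the value per kilobase of the canonical transcript beside it. In DMSO, SIRT1 was highest, at 53.81 to 104.9 CPM over the 5 libraries, and SIRT7 followed at 23.26 to 42.1 CPM with no overlap. SIRT2 was next (10.15 to 12.35 CPM), and SIRT5 (6.106 to 11.08 CPM) overlapped with it through DMSO replicate 1 alone. SIRT6 (3.611 to 8.968 CPM) overlapped with both SIRT5 and SIRT3, whereas SIRT5 lay above SIRT3 (4.359 to 5.367 CPM) in every DMSO library, and SIRT4 was lowest. In SFN the means in CPM were 68.6 for SIRT1, 32.2 for SIRT7, 15.9 for SIRT2, 7.96 for SIRT5, 7.4 for SIRT6 and 4.6 for SIRT3, the same order. SIRT5 and SIRT6 overlapped there as well, at 6.002 to 9.919 and 6.851 to 8.282 CPM. Divided by transcript length, the DMSO means were 21.9 CPM per kilobase for SIRT1, 17.1 for SIRT7, 6.07 for SIRT2, 3.48 for SIRT6, 1.75 for SIRT3, 1.71 for SIRT5 and 0.157 for SIRT4. On this second scale the ranges of SIRT1 and SIRT7 overlapped and SIRT5 was no longer above SIRT3. Division by length corrects for an effect that 3′ libraries are not expected to have, so the order in CPM is the one kept here.

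**Figure D1:**
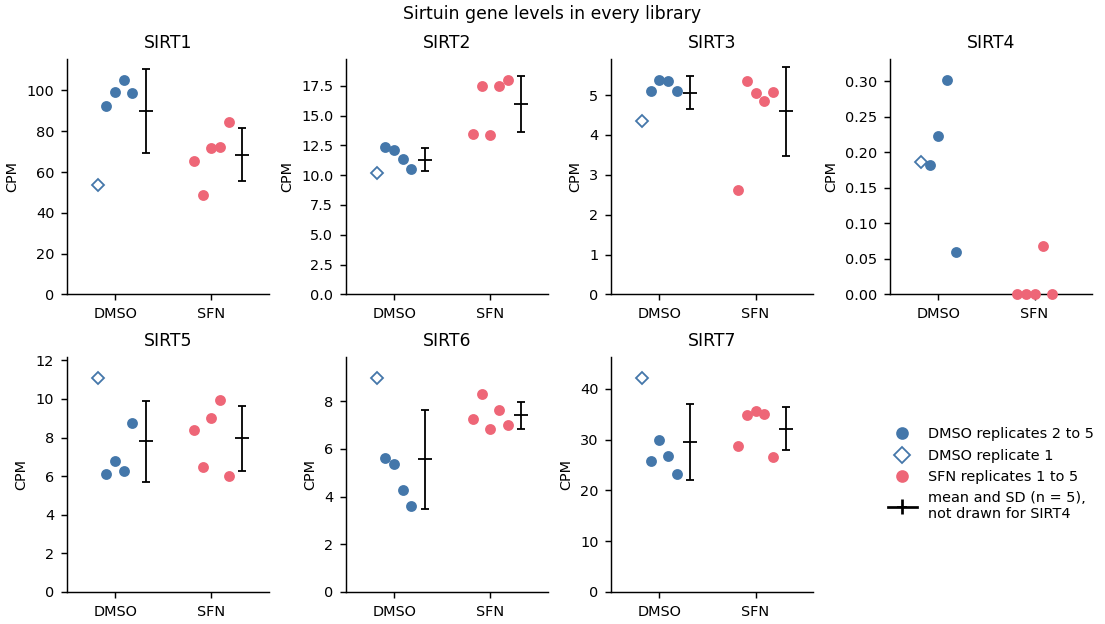
Level of each sirtuin gene in CPM (vertical axis, from 0) in the 5 DMSO and 5 SFN libraries, 1 panel per gene, with the mean and SD beside the points except for SIRT4. Only SIRT2 has groups that do not overlap, and DMSO replicate 1 (open diamond) is the lowest DMSO library for SIRT1, SIRT2 and SIRT3 and the highest for SIRT5, SIRT6 and SIRT7.

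SIRT2 was the tested sirtuin gene that rose with SFN, and none of the 6 tested fell past the threshold. SIRT4 was not tested in the reported fit and so could not have been called. With no filter SIRT4 had a log2 fold change of -3.19 (unadjusted p = 0.00705, adjusted p = 0.0638, edgeR). In the reported edgeR fit and with DESeq2 none of those 6 had fallen at an unadjusted p under 0.05 either. SIRT1 had an unadjusted p of 0.0402 with upper quartile scaling, 0.0494 with scaling by total count alone, 0.0439 with no filter and 0.0382 without SFN replicate 5, and edgeR called it as decreased without DMSO replicate 1. With limma-voom none fell past the threshold with quantile normalization (1 at an unadjusted p under 0.05) and 1, SIRT1, fell with sample weights. Of the 6 genes tested, 1 had an adjusted p under 0.05 (quasi-likelihood test of edgeR, adjusted after Benjamini and Hochberg across the 13378 genes). The background was 23% of all genes tested called in either direction, 9.07% increased and 13.9% decreased, and 8.69% were called with a change over 2-fold, which no sirtuin gene reached. The groups did not overlap for 1 of the 6 genes, against 19.9% of all genes. The median log2 fold change was 0.08 for the 6 genes and -0.03 for all genes. The count of 1 in 6 is near the background. Of all calls 39.5% were increases, and 27.5% when libraries were scaled by total count alone. Without DMSO replicate 1, 3 of the 6 were called (SIRT1, SIRT2 and SIRT6), but so were 46.1% of the 13566 genes then tested. The study's methods count cells per replicate and describe its data in general as from independent replicates, but neither they nor the labels state that these 5 libraries a group came from separate cultures. P-values therefore measure the spread between these libraries, which may be in part technical.

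**Figure D2:**
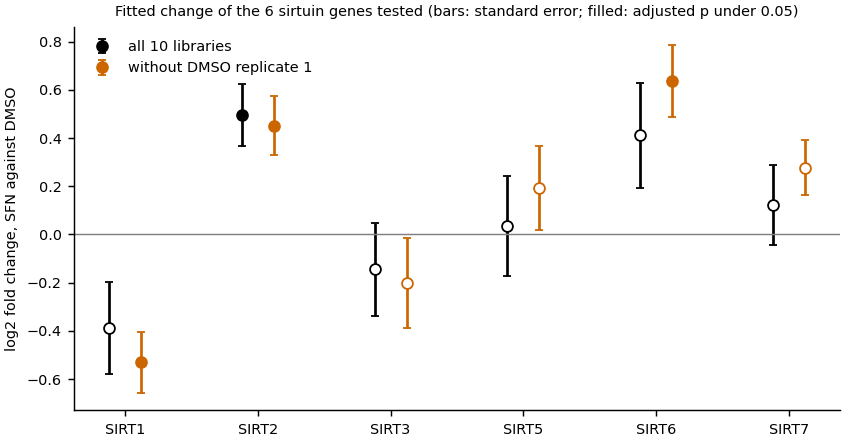
Fitted log2 fold change of SFN against DMSO (vertical axis) for the 6 sirtuin genes tested, with standard errors, from all 10 libraries (black) and without DMSO replicate 1 (orange). Filled points have an adjusted p under 0.05: SIRT2 is filled in both fits (0.50 and 0.45), and SIRT1 (-0.39 and -0.53) and SIRT6 (0.41 and 0.64) in the second only.

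SIRT2 (ENSG00000068903, chromosome 19, 38878555 to 38899862, minus strand, GRCh38) encodes the cytosolic deacetylase of α-tubulin, which also acts on the FOXO factors. Its levels in DMSO replicates 1 to 5 were 10.15, 12.35, 12.13, 11.39 and 10.48 CPM. In SFN replicates 1 to 5 they were 13.47, 17.51, 13.33, 17.48 and 17.94 CPM. Every SFN library lay above every DMSO library, with 2 of the SFN libraries at 13.33 and 13.47 CPM and the other 3 at 17.48 to 17.94 CPM. The mean rose from 11.3 ± 0.974 to 15.9 ± 2.33 CPM (SD, n = 5), a log2 fold change of 0.50 (SE 0.13, adjusted p = 0.0159, edgeR), or 1.41-fold with a 95% confidence interval of 1.16 to 1.71. The counts behind these levels were 163 to 271 per DMSO library and 179 to 259 per SFN library, 1017 and 1121 in all. In bulk RNA, more cells that hold the transcript and more of it per cell cannot be told apart. The call was lost when libraries were scaled by total count alone (0.40, adjusted p = 0.0701) and when no filter on low counts was used (0.48, adjusted p = 0.0551). NFKBIB, which starts head to head with SIRT2 on the other strand with 163 bases of overlap and no shared exon, went from 28.8 to 34.5 CPM (adjusted p = 0.543).

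SIRT1 (ENSG00000096717, chromosome 10, 67884656 to 67918390, plus strand) encodes the best studied nuclear deacetylase of the family. In DMSO replicates 1 to 5 its levels were 53.81, 92.41, 99.34, 104.9 and 98.74 CPM. In SFN replicates 1 to 5 they were 65.63, 48.74, 71.79, 72.2 and 84.59 CPM. DMSO replicates 2 to 5 all lay above every SFN library, and DMSO replicate 1 lay among the lowest, so the groups overlapped through that library alone. The means were 89.8 ± 20.6 CPM in DMSO and 68.6 ± 13.1 CPM in SFN (SD, n = 5). The log2 fold change was -0.39 (SE 0.19, 95% interval -0.81 to 0.03), and the adjusted p of 0.174 (edgeR) did not pass the threshold. Without DMSO replicate 1 the log2 fold change was -0.53 (SE 0.125, adjusted p = 0.00361). The change was negative under all 19 alternative settings, from -0.53 to -0.29. Counts were 864 to 2028 per DMSO library and 565 to 1198 per SFN library, so counting error was small beside the spread.

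SIRT6 (ENSG00000077463, chromosome 19, 4174109 to 4182566, minus strand) encodes a chromatin-bound deacetylase of histone H3 that restrains glycolytic genes and takes part in DNA repair. Its DMSO levels were 8.968, 5.605, 5.367, 4.277 and 3.611 CPM in replicates 1 to 5. Its SFN levels were 7.272, 8.282, 6.851, 7.625 and 6.99 CPM. The SFN libraries were all above DMSO replicates 2 to 5 and all below DMSO replicate 1. The means were 5.57 ± 2.07 and 7.4 ± 0.573 CPM (SD, n = 5), with a log2 fold change of 0.41 (SE 0.22, 95% interval -0.07 to 0.89, adjusted p = 0.212, edgeR). Without DMSO replicate 1 it was 0.64 (SE 0.151, adjusted p = 0.00372), and it was positive under all 19 settings, from 0.29 to 0.65. Each library held only 61 to 144 SIRT6 counts.

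SIRT7 (ENSG00000187531, chromosome 17, 81911939 to 81921323, minus strand) encodes the nucleolar member, which acts on RNA polymerase I and on histone H3. It had 42.1, 25.7, 29.91, 26.69 and 23.26 CPM in DMSO replicates 1 to 5, and 28.67, 34.85, 35.6, 35.09 and 26.55 CPM in SFN replicates 1 to 5. DMSO replicate 1 was the highest library of all, and SFN replicates 2 to 4 formed the next highest group. The log2 fold change was 0.12 (SE 0.17, 95% interval -0.24 to 0.49, adjusted p = 0.661, edgeR) and 0.28 (adjusted p = 0.0611) without DMSO replicate 1. MAFG, a small MAF partner of NRF2, lies directly upstream on the same strand, and its canonical transcript ends 93 bases before that of SIRT7 starts. MAFG rose from 58 to 154 CPM (log2 fold change 1.41, adjusted p = 2.79e-05, edgeR). The gene models overlap by 3054 bases with no shared base of canonical exons, and whether reads from MAFG entered the SIRT7 count was not tested.

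Of the 3 mitochondrial sirtuins, SIRT3 and SIRT5 could be tested and neither passed the threshold. SIRT3 (ENSG00000142082, chromosome 11, 215030 to 236931, minus strand) encodes the main deacetylase of mitochondrial enzymes. It had 4.359, 5.103, 5.367, 5.361 and 5.091 CPM in DMSO and 2.623, 5.349, 5.064, 4.858 and 5.084 CPM in SFN. All libraries but SFN replicate 1 lay between 4.359 and 5.367 CPM. Its log2 fold change was -0.14 (SE 0.19, 95% interval -0.57 to 0.28, adjusted p = 0.656, edgeR), and it was 0.0093 without SFN replicate 1 and 0.0099 with quantile normalization in limma-voom. RIC8A, on the other strand, shares 84 exon bases with SIRT3 at the 3′ end and had 95.1 CPM in DMSO and 83.8 CPM in SFN (adjusted p = 0.283). Without a statement of strand use, reads of the shared bases cannot be assigned to either gene.

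SIRT5 (ENSG00000124523, chromosome 6, 13574227 to 13615158, plus strand) encodes the mitochondrial desuccinylase and demalonylase. Its levels were 11.08, 6.106, 6.765, 6.265 and 8.761 CPM in DMSO and 8.405, 6.47, 9.011, 9.919 and 6.002 CPM in SFN. High and low libraries occurred in both groups. The log2 fold change of 0.03 (SE 0.21, 95% interval -0.42 to 0.49, adjusted p = 0.931, edgeR) changed sign in 7 of 19 alternative settings, so no direction is given. A long noncoding RNA gene (ENSG00000261071) runs on the other strand over the last 1058 bases of the SIRT5 region, and its reads could be counted with SIRT5 if strand was not used.

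SIRT4 (ENSG00000089163, chromosome 12, 120302316 to 120313249, plus strand) encodes a mitochondrial enzyme that ADP-ribosylates glutamate dehydrogenase and removes several acyl groups. It had 3, 4, 4, 5 and 1 counts in DMSO replicates 1 to 5 and 0, 0, 0, 1 and 0 counts in SFN replicates 1 to 5. Reads were found in all 5 DMSO libraries and in 1 SFN library, and the highest SFN count equalled the lowest DMSO count. The totals were 17 and 1, which, scaled to library size, gave a ratio of SFN to DMSO of 0.0743 with a 95% interval of 0.00178 to 0.474 that covers counting error only. With no filter on low counts the log2 fold change was -3.19 (SE 1.06, adjusted p = 0.0638, edgeR), a value that depends on the prior count. Taken alone, a count of 0 in a library allows up to 3 counts, which is within the range of the DMSO libraries. That limit is for a single library, and the interval of the ratio is the one for the 5 SFN libraries together.

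The make-up of the sirtuin transcript pool was described by the share of each gene in the summed sirtuin CPM of a library. SIRT1 supplied 41.2% to 65.9% of the summed sirtuin CPM in DMSO (mean 59.6 ± 10.4%, SD, n = 5) and 40.2% to 57.5% in SFN (49.9 ± 6.27%). SIRT2 supplied 6.98% to 8.37% in DMSO (7.58 ± 0.549%) and 9.41% to 14.4% in SFN (11.7 ± 1.88%), with no overlap between the groups. SIRT7 supplied 20.1 ± 6.86% and 23.7 ± 3.89%, and SIRT3 3.39 ± 0.0465% and 3.36 ± 0.837%. The sum itself was 149 ± 11.7 CPM in DMSO (131 to 159) and 137 ± 12.2 CPM in SFN (121 to 147), ranges that overlapped. DMSO replicate 1 had the lowest SIRT1 share and the highest SIRT7 share of its group.

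**Figure D3:**
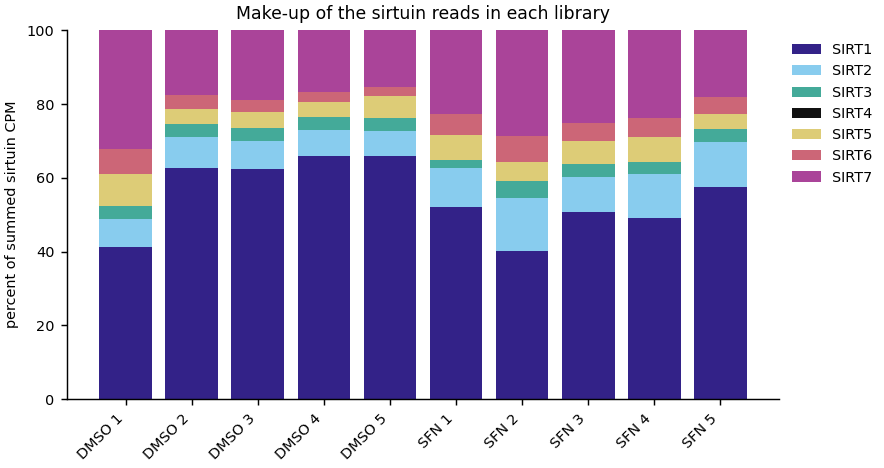
Percent of the summed sirtuin CPM (vertical axis) that each of the 7 genes supplied in every library, as stacked bars from 0 to 100. SIRT1 takes 62.4% or more in DMSO replicates 2 to 5 and at most 57.5% in the other libraries, while the SIRT2 band is wider in every SFN library than in any DMSO library.

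For each tested sirtuin gene, the pair of genes with the most similar profile was found among 10039 other genes with a mean of at least 5 CPM, by the root mean square difference of log2 CPM centred on each gene's mean over the 10 libraries. KITLG (0.0722), the ligand of the KIT receptor, was one of the pair nearest to SIRT1, with a log2 fold change of -0.37 (adjusted p = 0.197, edgeR), and was in place 13 without DMSO replicate 1. SIRT2 lay nearest to RNF41 (0.108), a ubiquitin ligase, and ZNF408 (0.113), a zinc finger protein. These genes held the same places without that library and rose by 0.41 and 0.52 on the log2 scale (adjusted p = 0.0109 and 0.0237). CD2BP2 (0.0899) was one of the pair nearest to SIRT7, and was in place 16 without DMSO replicate 1. SIRT6 lay nearest to HSP90AB1 (0.127), a cytosolic chaperone, and SPR (0.13), sepiapterin reductase. Without DMSO replicate 1, HSP90AB1 was in place 7 and SPR in place 2. SIRT3 lay nearest to SSC5D (0.123) and SLC22A5 (0.158), and SIRT5 to EXOSC6 (0.147) and UBA3 (0.165). No sirtuin gene was among the nearest genes of another, but SIRT3 and SIRT4, with means under 5 CPM, could not have been named. The likeness is over 10 libraries that share the position of DMSO replicate 1, and it carries no test.

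The genes that make and use NAD+ were read from lists written with earlier results of these data known. Of all genes tested, 23% were called, 9.07% as increased and 13.9% as decreased. Of 14 genes of NAD+ synthesis and transport tested, 2 rose and none fell past the threshold (14.3% called). Their median log2 fold change was 0.07. At an unadjusted p under 0.05, 1 fell (NMNAT3, the mitochondrial NMN adenylyltransferase), which was also called by DESeq2. With limma-voom sample weights 3 fell past the adjusted threshold and 4 at an unadjusted p under 0.05. NAMPT, the rate-limiting enzyme of NAD+ salvage, had 89.05, 114.3, 95.88, 120.8 and 121.2 CPM in DMSO and 105.7, 80.06, 119.9, 108.4 and 122.2 CPM in SFN. The groups overlapped throughout, and the log2 fold change of -0.01 (SE 0.14, 95% interval -0.32 to 0.29, adjusted p = 0.962, edgeR) changed sign under 6 settings. NNMT, which methylates nicotinamide and so withdraws it from salvage, had 14.07, 6.015, 7.044, 5.542 and 6.275 CPM in DMSO and 16.93, 21.48, 12.96, 15.92 and 12.5 CPM in SFN. DMSO replicate 1 again lay among the SFN libraries, and the log2 fold change was 1.04 (SE 0.26, adjusted p = 0.014) and 1.35 (adjusted p = 1.71e-05) without that library. NMNAT1, the nuclear enzyme of the last step of NAD+ synthesis, had a mean of 16 ± 4.09 CPM in DMSO and 22.4 ± 1.23 CPM in SFN (SD, n = 5). Its log2 fold change was 0.49 (SE 0.16, adjusted p = 0.0425), and the call was lost when any library other than DMSO replicate 1 was left out (adjusted p 0.0555 to 0.105), with upper quartile scaling (0.0641) and with no filter (0.0636).

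Of 16 other NAD+ consuming enzymes tested, 1 rose and 3 fell (25% called, against 23% of all genes). Their median log2 fold change was -0.20. BST1, an ADP-ribosyl cyclase of the cell surface, had 0, 0, 7, 1 and 2 counts in DMSO and 19, 19, 13, 26 and 28 counts in SFN. It rose by 3.64 on the log2 scale (SE 0.63, adjusted p = 0.0014, edgeR) from a level near 0, and by 4.90 without DMSO replicate 3, which held most of the DMSO reads. BST1 passed the filter on low counts through its SFN libraries alone, so the reported test was open to a rise and not to a fall. With no filter its log2 fold change was 3.62 (adjusted p = 0.000542, edgeR). CD38, another cyclase, had too few counts to be tested. The 3 that fell were mono-ADP-ribosyltransferases or close relatives. PARP16, an enzyme of the endoplasmic reticulum membrane, went from 6.23 ± 0.411 to 3.2 ± 0.774 CPM (SD, n = 5; log2 fold change -0.96, adjusted p = 0.00198). PARP9 went from 19.7 ± 3.96 to 10.8 ± 0.83 CPM (-0.87, adjusted p = 0.00107). For both genes the groups did not overlap, as was so for 19.9% of all genes tested. PARP14 had 11.4, 27.16, 26.67, 27.83 and 29.83 CPM in DMSO and 13.77, 12.25, 13.55, 14.37 and 19.56 CPM in SFN. Its log2 fold change was -0.74 (adjusted p = 0.0408), and the call was lost when any one of DMSO replicates 2 to 5 or SFN replicates 1 to 4 was left out (adjusted p 0.0846 to 0.0944) or limma-voom quantile normalization was used (0.123). PARP1, the poly-ADP-ribose polymerase that DNA breaks activate, had 323 ± 13 CPM in DMSO and 287 ± 12.1 CPM in SFN (adjusted p = 0.191, edgeR). Its groups did not overlap either, at 302.8 to 334.1 CPM in DMSO and 269.2 to 300.9 CPM in SFN.

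Of 18 genes known to act on SIRT1 or its gene, 1 rose and 5 fell, with a median log2 fold change of 0.04. That was 33.3% called, against 23% of all genes, of which 9.07% increased and 13.9% decreased. CCAR2, whose product (DBC1) binds SIRT1 and inhibits it, had 79.15, 114.2, 134.1, 106.9 and 103.1 CPM in DMSO and 74.15, 66.69, 75.06, 69.64 and 71.03 CPM in SFN. All SFN libraries lay below all DMSO libraries, with DMSO replicate 1 closest to them. The log2 fold change was -0.59 (SE 0.13, adjusted p = 0.00648, edgeR) and -0.69 (adjusted p = 3.84e-05) without DMSO replicate 1. The genes of both catalytic subunits of AMP-activated protein kinase, the energy sensor that raises NAD+, fell as well. PRKAA2 went from 31 ± 3.16 to 19.5 ± 3.48 CPM (log2 fold change -0.67, adjusted p = 0.00387). PRKAA1 went from 123 ± 6.73 to 91.4 ± 14.9 CPM (-0.43, adjusted p = 0.026), a call that was lost without DMSO replicate 2, 4 or 5 or SFN replicate 1 or 3 (adjusted p 0.0508 to 0.0637) or with no filter (0.0601).

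FOXO1 and FOXO3, transcription factors that are both deacetylated by sirtuins and active at the SIRT1 gene, fell by 1.45 and 0.46 on the log2 scale (adjusted p = 0.0106 and 0.033). FOXO1 had only 17 to 32 counts per DMSO library and 4 to 11 per SFN library. It passed the filter on low counts through its DMSO libraries, where it was higher, so the reported test is not free of that choice. With no filter its log2 fold change was -1.46 (adjusted p = 0.0228, edgeR). FOXO3 had 58.6 to 86.6 CPM in DMSO and 41.1 to 56.5 CPM in SFN, and its call was lost without DMSO replicate 5 or any one of SFN replicates 1 to 4 (adjusted p 0.0529 to 0.0858). CSNK2A1, a catalytic subunit of the kinase CK2 that phosphorylates SIRT1, was the member of the list that rose, from 165 ± 14.4 to 209 ± 13.4 CPM (0.34, adjusted p = 0.0276), and its call was lost without DMSO replicate 2, 3 or 4 or SFN replicate 1, 3, 4 or 5 (adjusted p 0.0529 to 0.0679). It was also lost with limma-voom quantile normalization (adjusted p = 0.127), with no filter (0.142) and with scaling by total count alone (0.206). PRKAA1 and CSNK2A1 were named after their values were seen.

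Of 25 nuclear and cytosolic sirtuin substrates and partners tested, 2 rose and 4 fell (24% called, against 23% of all genes). Their median log2 fold change was -0.04. PER2, a circadian clock protein deacetylated by SIRT1, had 0.9341, 3.509, 4.305, 4.398 and 5.15 CPM in DMSO and 0.7749, 0.8627, 0.3723, 1.012 and 0.5649 CPM in SFN. DMSO replicate 1 was at the SFN level, and the log2 fold change was -2.34 (SE 0.43, adjusted p = 0.002, edgeR) and -2.58 without that library. Like FOXO1, PER2 passed the filter on low counts through its DMSO libraries. With no filter its log2 fold change was -2.355 (adjusted p = 0.000389, edgeR). GABPB1, an ETS-partner subunit deacetylated by SIRT7 that drives nuclear genes of mitochondria, rose from 33.1 ± 3.93 to 77.7 ± 4.86 CPM (1.23, adjusted p = 1.24e-05). The others that fell were FOXO1, FOXO3 and, named after its value was seen, POLR1E, a subunit of RNA polymerase I that SIRT7 deacetylates (-0.47, adjusted p = 0.0241), whose call was lost without SFN replicate 1, 3 or 5 (adjusted p 0.0505 to 0.0707).

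Of 20 mitochondrial sirtuin substrates tested, 1 rose and 2 fell (15% called, against 23% of all genes). Their median log2 fold change was 0.04. MLYCD, malonyl-CoA decarboxylase and a target of SIRT4, went from 3.71 ± 0.393 to 1.65 ± 0.364 CPM (SD, n = 5; log2 fold change -1.17, adjusted p = 0.00107, edgeR). SHMT2, the mitochondrial serine hydroxymethyltransferase that SIRT5 and SIRT3 act on, rose from 95.2 ± 17.2 to 139 ± 19 CPM (0.54, adjusted p = 0.0155). PPIF, cyclophilin D of the permeability transition pore and a SIRT3 substrate, went from 136 ± 18.8 to 102 ± 13.4 CPM (-0.41, adjusted p = 0.0353), a call lost without DMSO replicate 2, 3 or 5 or SFN replicate 1, 3, 4 or 5 (adjusted p 0.0507 to 0.0891) and with no filter (0.0614). The best known SIRT3 targets SOD2 (0.12, adjusted p = 0.425) and IDH2 (0.21, adjusted p = 0.262) did not pass the threshold. In shares of the genes tested, the 5 lists had, in the order given, 14.3%, 25%, 33.3%, 24% and 15% of their members called, against 23% of all genes. Without DMSO replicate 1 the counts of called members were 4, 10, 8, 10 and 10, when 46.1% of all genes were called.

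**Figure D4:**
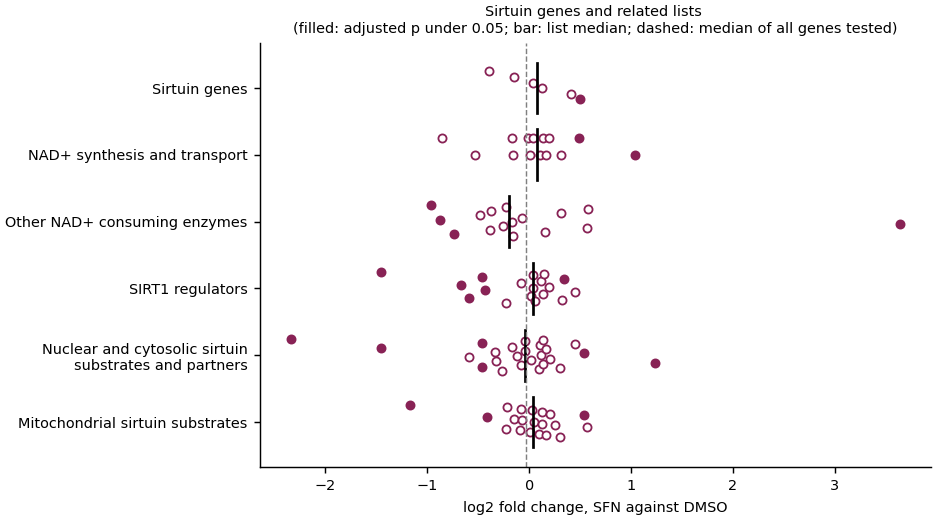
Log2 fold change of SFN against DMSO (horizontal axis) of every tested gene of the sirtuin family and of 5 related lists, 1 point per gene, filled where the adjusted p was under 0.05. The list medians (bars) lie between -0.20 and 0.08, near the median of all genes (dashed line, -0.03), and BST1 at 3.64 and PER2 at -2.34 are the outermost points. BST1 passed the filter on low counts through its SFN libraries and PER2 through its DMSO libraries.

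The choice of setting bore on the sirtuin genes unequally. SIRT2 was called in 17 of 19 alternatives, with log2 fold changes of 0.37 to 0.61. SIRT1 was called in 2 (without DMSO replicate 1, and with limma-voom sample weights) and SIRT6 in 3 (the same pair and limma-voom with quantile normalization). With sample weights, which let a library with a deviating profile count for less, 5 of the 6 genes were called, but so were 59.2% of all genes tested. Scaling by total count alone moved the median of all genes to -0.11, and the SIRT2 change less the median of all genes was then 0.515, against 0.523 as reported.

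**Figure D5:**
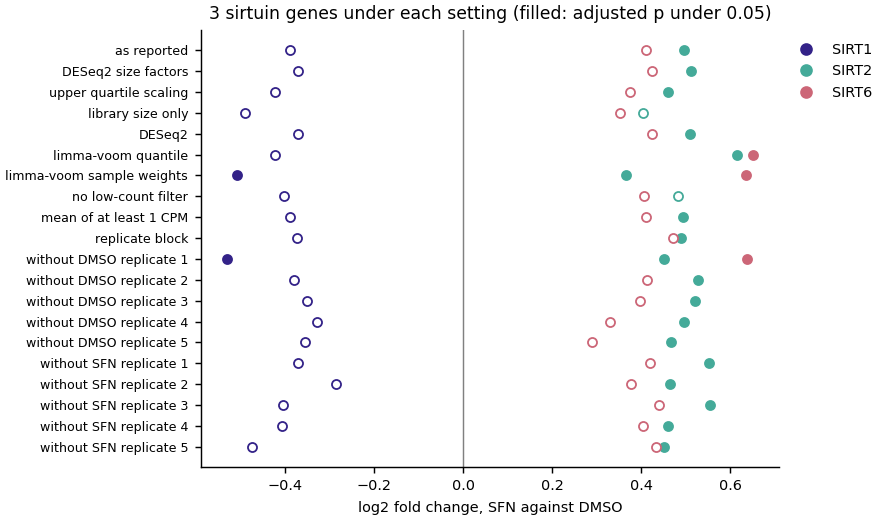
Log2 fold change (horizontal axis) of SIRT1, SIRT2 and SIRT6 as reported and under each of 19 alternative settings (vertical axis), filled where the adjusted p was under 0.05. No point crosses 0, the SIRT2 points are filled in all but 2 alternatives, and the SIRT1 points are filled in 2.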

How the data were processed

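RNA of 5 DMSO and 5 SFN replicates was sequenced as Lexogen QuantSeq 3′ libraries. Alignment by the authors used a Bluebee pipeline, and gene identifiers were annotated on GRCh38. What was deposited is 1 table of raw counts, with a row per Ensembl gene and a column per replicate. The submitters' processing notes name FastQC, STAR, featureCounts and edgeR. Versions, strand use and molecular identifiers are not given in the sources used here. The study's own fit used repeated measures that its text does not define and was not run.

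Counts were filtered with filterByExpr (minimum count 10), scaled by TMM and compared with edgeR 4.0.16 (glmQLFit and glmQLFTest) in R 4.3.3, with Benjamini-Hochberg adjustment over 13378 genes and a threshold of 0.05. SE is the log2 fold change over the root of the F statistic. limma 3.58.1 and DESeq2 1.42.0 gave alternatives, and leave-one-out fits and a replicate block were run. Intervals are at 95%, and the interval and the limit for SIRT4 cover counting error only.

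The family members and gene lists were chosen with earlier results of these data known. Genes named were all 7 sirtuins, up to 4 called genes with the largest change per list, NAMPT, CCAR2 and the 2 nearest profiles per tested sirtuin. A few genes that this rule names are not reported here. Positions are from GENCODE 44, which held 28145 of the 28380 identifiers. No pair of replicates was alike within sampling noise.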

Additional observations from a re-analysis of the deposited data

Results flagged for a closer look

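In groups of 5 libraries, 54 groups of the sirtuin genes and the named list genes were examined for a single library whose gap to its nearest neighbour exceeded 0.71 of the range of the group (Dixon's 95% value), and 10 were found. Chance flags about 1 group in 20. DMSO replicate 1 accounted for 7 of the 10. Among the sirtuin genes it was the lowest DMSO library for SIRT1 (53.8 CPM, the next 92.4, gap 0.755 of the range) and for SIRT3 (4.36 CPM, the next 5.09, gap 0.726). SFN replicate 1 was lowest for SIRT3 (2.62 CPM, the next 4.86, gap 0.82). For SIRT4, SFN replicate 4 held the only SFN read, so its gap was 1 of the range.

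Among the list genes, DMSO replicate 1 was highest for NNMT (14.1 against 7.04 CPM, gap 0.824), FOXO3 (86.6 against 62.2 CPM, gap 0.872), SHMT2 (125 against 93.9 CPM, gap 0.738) and POLR1E (86 against 65 CPM, gap 0.753), and lowest for PARP14 (11.4 against 26.7 CPM, gap 0.828). SFN replicate 5 was highest for PRKAA2 (25.5 against 19 CPM, gap 0.728). What set these libraries apart was not tested.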

How the results depend on the processing

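Each result was recomputed under 19 alternatives. SIRT1, SIRT2, SIRT6 and SIRT7 kept their direction in all of them. The SIRT1 log2 fold change passed the threshold with limma-voom sample weights (-0.51), as did SIRT5 (0.36), SIRT6 (0.64) and SIRT7 (0.32), and SIRT6 did so with limma-voom quantile normalization (0.65). SIRT2 lost the threshold with scaling by total count alone (0.40) and with no filter on low counts (0.48). SIRT3 turned to 0.0099 with quantile normalization, and SIRT5 to -0.00083 with upper quartile scaling and -0.0307 with scaling by total count. NAMPT turned to 0.0042 with DESeq2 size factors and 0.0043 with DESeq2. With 1 library left out, log2 fold changes ranged from -0.53 to -0.29 for SIRT1, 0.45 to 0.56 for SIRT2, -0.20 to 0.0093 for SIRT3, -0.053 to 0.19 for SIRT5, 0.29 to 0.64 for SIRT6, 0.05 to 0.28 for SIRT7 and -0.0793 to 0.0797 for NAMPT.

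The count of called sirtuin genes was 0 with scaling by total count and with no filter, 2 with quantile normalization, 5 with sample weights and 1 to 3 with 1 library left out. All genes called numbered 7915 with sample weights and 2383 to 6251 with 1 library left out, against 3076. Increases made up 27.5% (total count) to 48.9% (sample weights) of calls, against 39.5%. Calls among genes of NAD+ synthesis and transport were 1 with upper quartile scaling and with no filter, 8 with sample weights and 1 to 4 with 1 library left out. Other NAD+ consuming enzymes gave 7 with DESeq2, 13 with sample weights and 3 to 10 with 1 left out. SIRT1 regulators gave 3 to 8 with 1 left out. Nuclear and cytosolic substrates gave 14 with sample weights and 4 to 10 with 1 left out, and mitochondrial substrates 10 with sample weights and 2 to 10 with 1 left out. The upper end of each range came without DMSO replicate 1. The causes were not tested, and the leave-one-out fits also held fewer libraries.

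The deviations of same-numbered libraries had correlations of 0.0394, -0.267, -0.0605, 0.0308 and 0.484, and only replicate 5 correlated best with its own number. The reported fit therefore used no pairing, but these correlations cannot show that libraries were not handled in pairs. A replicate block gave 2441 calls in all, and SIRT2 stayed called (0.49, adjusted p = 0.0445), while SIRT1 (-0.37) and SIRT6 (0.47) stayed uncalled. The block ended the calls of PARP14 (adjusted p = 0.0535), PPIF (0.0675) and CSNK2A1 (0.0732) and changed no other call among the sirtuin genes and the named list genes. Depth limits SIRT4 (18 counts in all) most and SIRT3 and SIRT6 next.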
